A study of Mus musculus with 5 samples.

Results

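The immunoglobulin kappa (Igk) locus of the mouse, on chromosome 6, was described as a whole: its gene segments and the EBF1 sites among them. The segments were the 168 RefSeq GRCm38 entries on chromosome 6 whose symbols start with Igkv, Igkj or Igkc, that is 162 variable (V) segments, 5 joining (J) segments and 1 constant region. The sites were the 57 of 7494 in the EBF1 site list whose centre lay between positions 67555636 and 70723923. The locus was chosen by its number of sites and their classes, both already known to differ from the rest of the list, so these are given as a description with no test.

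Chromatin immunoprecipitation and sequencing (ChIP-seq) of EBF1 was done in pro-B cells, progenitors committed to the B lineage that have not yet made a light chain. Fetal liver cells of genotype Ebf1-/- had received EBF1 by transduction, so their EBF1 came from the introduced gene. The list analysed came with the library of cells given wild-type EBF1 (EBF1 wt) and precipitated with an antibody against EBF1. The other 4 libraries of the series (the same ChIP with the EBF1 form called YmA, a BRG1 ChIP with YmA, and an input labelled EBF1 wt for each antibody) were not analysed here. With 1 library there was no replicate, and the list gives positions and a class but no height, which leaves site strength and read depth unknown. Each site is 300 bp wide and carries 1 of 3 class labels: YmA-dep, YmA-ind or CTD-ind. No source used here says how the classes were assigned, and their names serve as labels only.

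A kappa light chain gene is made by joining 1 V segment to 1 J segment, and splicing then links the joined exon to the constant region. The joining is cut by the RAG recombinase and mostly takes place after the pro-B stage, in pre-B cells. V segments of mouse kappa lie in both orientations, fall into families of related sequence, and each intact V segment has its own promoter just ahead of its leader exon. EBF1 is a DNA-binding factor without which B-cell development stops early, and it can bind sites in closed chromatin. Positions below are in GRCm38 and 1-based. Distal means far from the J segments. The gene table gave no strand, so an end of a segment is called lower or higher by its coordinate, and a promoter end could not be told from the other end.

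EBF1 sites were most often centred just outside the end of a V segment. Of the 57 sites, 26 shared at least 1 bp with a segment over their 300 bp and 31 shared none. None (0 of 57) was centred inside a segment, which allows a share of up to 6.27% (exact 95% binomial interval, as are all intervals here, covering counting error only). Outside a segment but within 1 kb of its end lay 33 sites (57.9%, interval 44.1 to 70.9%), and 24 (42.1%, 29.1 to 55.9%) lay farther away. The band within 0.2 kb of a segment end held 31 sites (54.4%, 40.7 to 67.6%) in 2.07% of the length of the locus. The next band, from 0.2 to 1 kb, held 2 sites in 8.09% of the length, and the segments themselves made up 2.70% of it, so few centres could fall inside them and 0 does not show that segments were avoided. Sites were thus concentrated in a narrow strip at segment ends. Of all sites elsewhere, 7.41% were centred outside genes and within 1 kb of a gene end, and 65.5% (64.4 to 66.6%) were inside a gene, where genes are mostly longer than kappa segments.

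**Figure D1:**
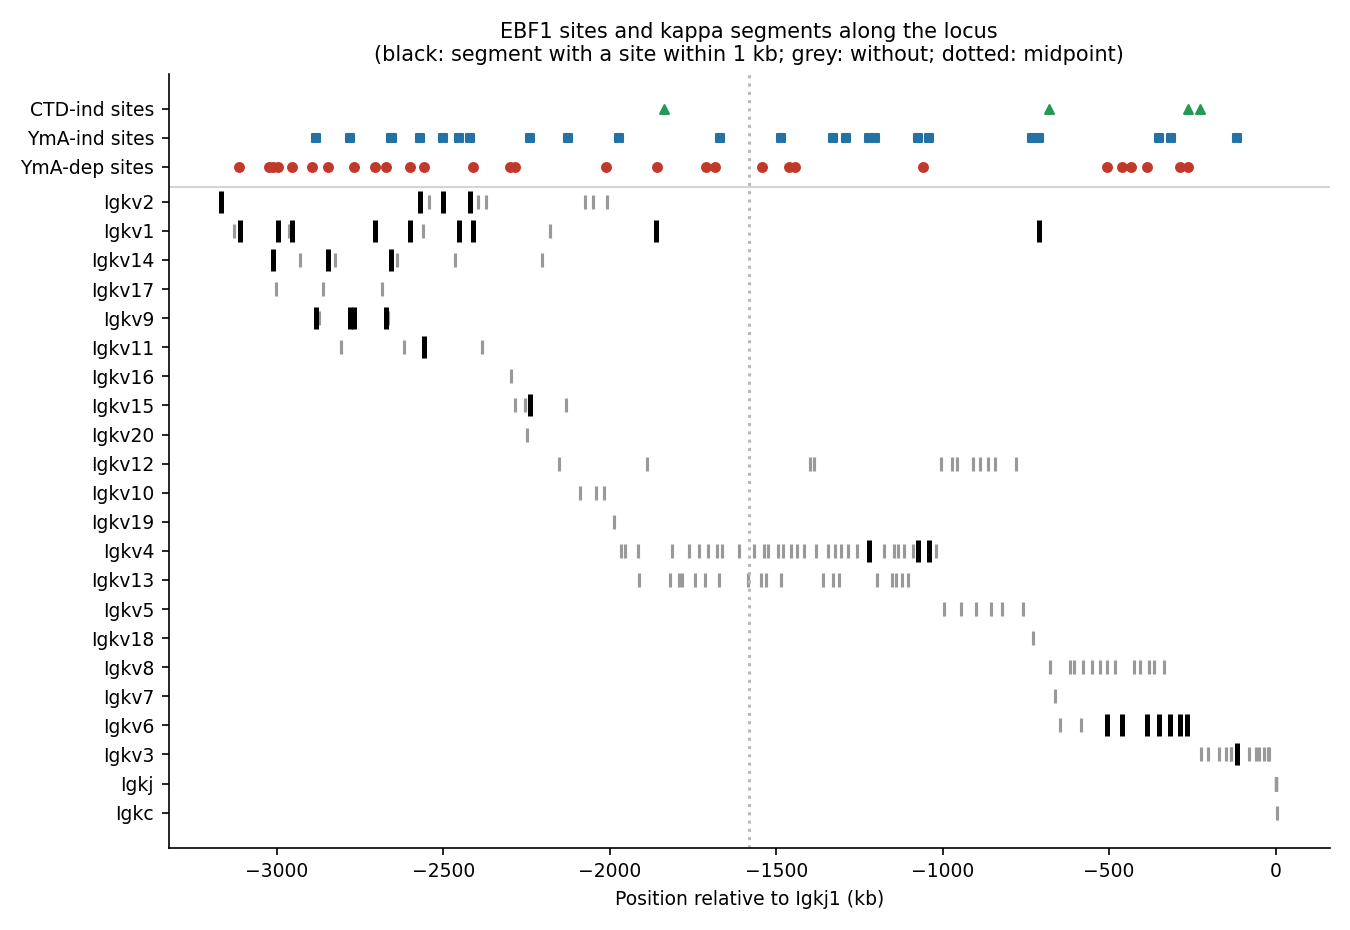
Positions of the 57 EBF1 sites by class (top 3 rows) and of the kappa segments by family (lower rows), in kb relative to Igkj1. Long black ticks are the 33 segments with a site within 1 kb, grey ticks those without, and the dotted line is the midpoint of the range. Black ticks make up most of the Igkv1, Igkv9 and Igkv6 rows and are missing from the Igkv8, Igkv12 and Igkv13 rows.

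The distance from a site to the segment end was mostly under 200 bp. Over the 33 sites within 1 kb, the median distance of the centre from the end was 88 bp, with the middle 50% of sites between 75 and 133 bp, the closest at 30 bp (Igkv4-51) and the farthest at 978 bp (the second site of Igkv6-13). Within 200 bp were 31 of the 33 (93.9%, interval 79.8 to 99.3%). Elsewhere in the genome, 551 sites lay outside genes and within 1 kb of a gene end, at a median of 227 bp, and 45.6% (41.3 to 49.8%) of them were within 200 bp. The 551 leave out sites centred inside genes, which were 65.5% of the sites elsewhere. Gene entries whose type is given as other were not used for these counts. Sites are not replicates and the locus was chosen by its sites, so the difference between these shares was not tested. The last site counted as within 1 kb was the one at 978 bp, and the first beyond it lay 1064 bp from Igkv13-71-1.

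Sites lay at lower and at higher ends of segments. Of the 33, 21 were outside a lower end (63.6%, interval 45.1 to 79.6%) and 12 outside a higher end (36.4%, 20.4 to 54.9%). Median distances were 90 bp at lower ends and 88 bp at higher ends. No segment had sites within 1 kb at both ends.

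Sites were shared unevenly among the V families. Counting every site of the list, 33 of 162 V segments (20.4%, interval 14.5 to 27.4%) had one within 1 kb, and these belonged to 9 of 20 families. Of all other genes in the gene table, 8.83% had a site inside or within 1 kb. Of those no longer than the longest kappa segment, 1.06% did. The same count for V segments of other receptor loci was 3 of 183 for Ighv (1.64%, interval 0.339 to 4.72%), 2 of 130 for Trav (1.54%, 0.187 to 5.45%) and 0 of 35 for Trbv (up to 10%). The locus was chosen by its number of sites, so these counts are set side by side as a description and support nothing. Depth is unknown, so a segment with no listed site cannot be read as unbound.

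**Figure D2:**
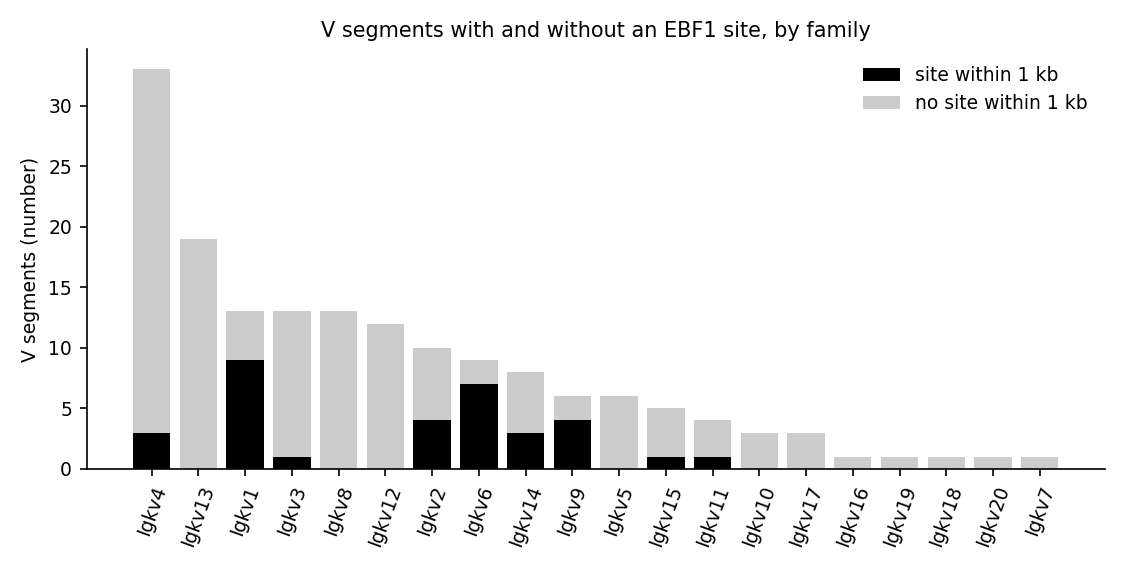
Number of V segments in each Igkv family with (black) and without (grey) an EBF1 site within 1 kb, from the largest family to the smallest. Igkv1 has 9 of 13 and Igkv6 7 of 9 in black, while Igkv13, Igkv8 and Igkv12 have 0 of 19, 13 and 12.

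Igkv1 had the most segments with a site. Sites lay within 1 kb of 9 of its 13 segments (69.2%, interval 38.6 to 90.9%), of which 8 are listed as V segments and 1, Igkv1-108, as a pseudogene. The YmA-dep sites of this family were centred 90 bp from Igkv1-135 (site at 67609506 to 67609805), 54 bp from Igkv1-133, 88 bp from Igkv1-131, 74 bp from Igkv1-122, 92 bp from Igkv1-117 and 54 bp from Igkv1-88. A further YmA-dep site lay 423 bp from Igkv1-108. The YmA-ind sites were at 86 bp from Igkv1-110 and 88 bp from Igkv1-35. Apart from Igkv1-108, distances in the family thus ranged from 54 to 92 bp, at lower ends and at higher ends alike. Segments of this family without a site were Igkv1-132, Igkv1-99 and the pseudogenes Igkv1-136 and Igkv1-115. Igkv1-35 is the 1 member of the family that lies in the proximal part of the array, and its site kept the offset of its distal relatives.

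Igkv6, in the proximal part, had sites within 1 kb of 7 of 9 segments (77.8%, interval 40 to 97.2%). YmA-dep sites were centred 115 bp from Igkv6-25 (70215169 to 70215468), 96 bp from Igkv6-23, 65 bp from Igkv6-20 and 75 bp from Igkv6-14. YmA-ind sites were centred 79 bp from Igkv6-17 and 85 bp from Igkv6-15. Igkv6-13 was the only segment of the array with 2 sites within 1 kb. Of this pair, the CTD-ind site was 47 bp away (70457934 to 70458233) and the YmA-dep site was 978 bp away on the same side (70458865 to 70459164). Their centres were 931 bp apart, the smallest gap in the locus. Igkv6-32 and Igkv6-29 had none, with the nearest site 32.9 kb and 76.2 kb away.

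Igkv8 segments are interspersed with Igkv6 segments, and 0 of them had a site within 1 kb. The count of 0 is out of 13 segments (up to 24.7%), of which 12 lie between the outermost Igkv6 segments. Their nearest sites were 1.54 to 75.9 kb away, with a median of 20.3 kb. The closest, at Igkv8-24, is the site of Igkv6-25. Segments of the 2 families therefore share the same stretch of chromosome and differ in their sites.

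In Igkv9 the 4 segments listed as V segments, called intact here, each had a site, and the 2 pseudogenes, Igkv9-128 and Igkv9-119, did not. Distances were 153 bp at Igkv9-129 and 133 bp at Igkv9-124 (both YmA-ind), and 120 bp at Igkv9-123 and 123 bp at Igkv9-120 (both YmA-dep). All 4 distances lie above the 54 to 92 bp of Igkv1. Igkv14 had a site at 3 of 8 segments (37.5%, interval 8.52 to 75.5%). These 3, Igkv14-134-1 and Igkv14-126-1 (YmA-dep, both at 155 bp) and Igkv14-118-2 (YmA-ind, at 133 bp), are among its 5 pseudogenes. The other pseudogenes, Igkv14-126 and Igkv14-118-1, were 20.3 and 14.3 kb from a site, and its 3 intact members had none within 1 kb. Over the array, a site lay within 1 kb of 26 of 102 intact V segments (25.5%, interval 17.4 to 35.1%) and 7 of 60 pseudogene segments (11.7%, 4.82 to 22.6%). These intervals overlap, which does not show that the shares are equal, and the difference was not tested.

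Igkv2 had a site at 4 of 10 segments. Those at Igkv2-116 (88 bp), Igkv2-112 (56 bp) and Igkv2-109 (79 bp) were YmA-ind. The fourth belongs to Igkv2-137, the most distal segment of the array (67555636 to 67556216), and is a YmA-dep site at 67555395 to 67555694, centred 92 bp below the segment. It is not among the 57, because the range begins at the first base of Igkv2-137. At the other limit, the nearest site beyond the range was a YmA-ind site at 70749668 to 70749967, 23.1 kb past the constant region. Within the range, the sites nearest to the limits were those of Igkv1-135 and Igkv3-7. Single sites lay at Igkv11-114 (YmA-dep, 157 bp), Igkv15-101 (YmA-ind, 108 bp) and Igkv3-7 (YmA-ind, 179 bp, 70607109 to 70607408).

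**Figure D3:**
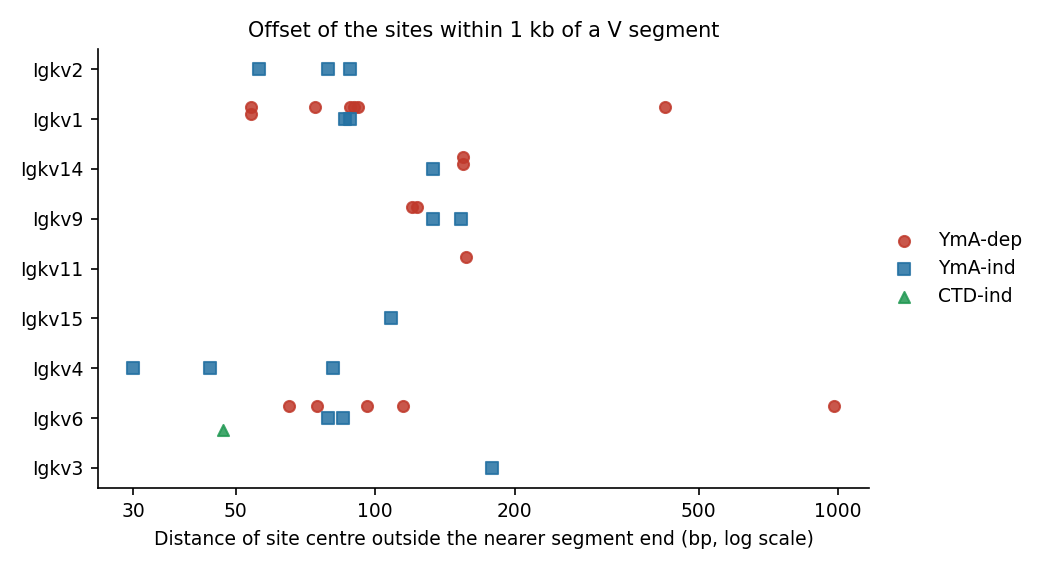
Distance of the centre of each of the 33 sites within 1 kb from the nearer segment end, on a log scale, by Igkv family and class; points at equal distance are set slightly apart. Points lie between 30 and 179 bp except 423 bp at Igkv1-108 and 978 bp at Igkv6-13, and Igkv9 and Igkv14 lie to the right of Igkv1, Igkv2 and Igkv4.

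Igkv4 is the largest family, with 33 segments, and 3 of them had a site within 1 kb (9.09%, interval 1.92 to 24.3%). These were Igkv4-58 (44 bp), Igkv4-53 (81 bp) and Igkv4-51 (30 bp), all YmA-ind and all at the lower end. Igkv4-51 had the smallest distance in the array. The 3 lie near the proximal end of the family, and the other 30 segments had their nearest site as far as 60.9 kb away.

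Some farther sites in the Igkv4 and Igkv13 stretch repeated at similar distances from a segment, a pattern described after the values were seen. Of the 24 sites beyond 1 kb from any segment, 9 were centred 5.5 to 7 kb below the lower end of an Igkv4 segment, and their distances were 5.84 to 6.70 kb with a median of 5.92 kb. They belonged to Igkv4-80, Igkv4-79, Igkv4-74, Igkv4-70 and Igkv4-69 (YmA-dep) and to Igkv4-78, Igkv4-71, Igkv4-62 and Igkv4-59 (YmA-ind). At Igkv4-78 and Igkv4-70 the distance was 6.70 kb, and at the other 7 it was 5.84 to 5.98 kb. In 5 of the 9 cases an Igkv13 pseudogene lay on the far side of the site, and these 5 sites were 1064 to 1208 bp from it (median 1197 bp). The order in each was Igkv13 pseudogene, EBF1 site, Igkv4 segment, with 7 to 7.90 kb between the 2 segments. From Igkv4-80 to Igkv4-59 there are 17 Igkv4 segments, of which 9 had such a site and 0 had a site within 1 kb. No Igkv4 segment had both kinds. A similar distance also occurred below an Igkv13 pseudogene: a YmA-ind site lay 5.85 kb below Igkv13-57-2. Its nearest Igkv4 segment, Igkv4-58, was 17.1 kb away, so it is not among the 9.

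**Figure D4:**
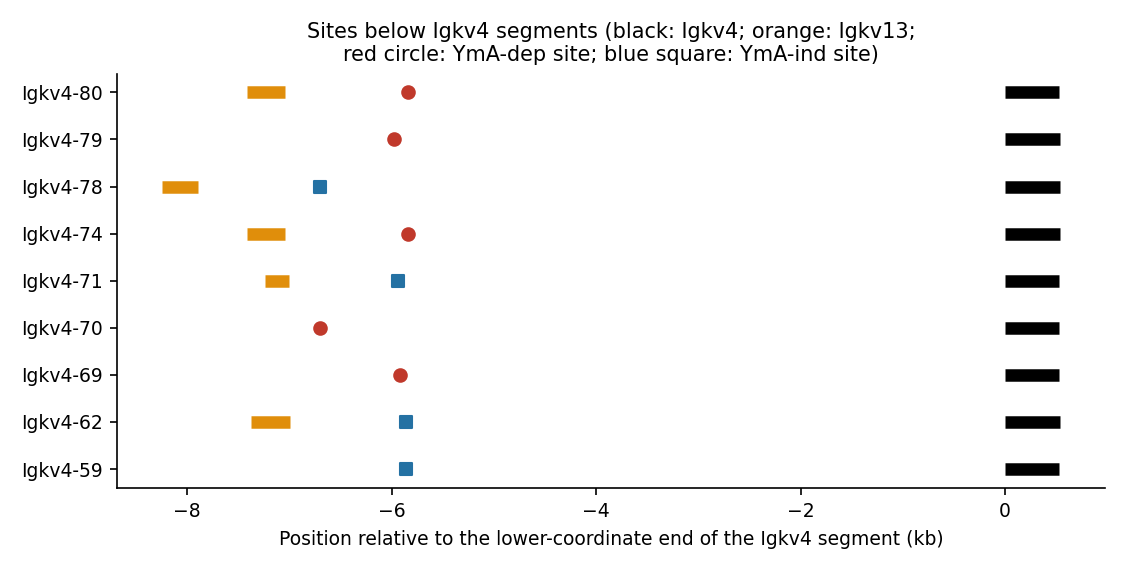
The 9 sites that lie 5.84 to 6.70 kb below an Igkv4 segment, drawn relative to the lower-coordinate end of that segment (kb). Black bars are Igkv4 segments, orange bars Igkv13 segments, red circles YmA-dep sites and blue squares YmA-ind sites; 7 of the 9 sites stand in 1 column just inside 6 kb.

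Not each copy of that arrangement had a site. Of 11 Igkv4 segments with an Igkv13 segment ending within 10 kb below them, 5 had a site in between and 6 had none. Among the 6, the spacing was 7.14 kb at Igkv4-86, 7.3 kb at Igkv4-73, 7.02 kb at Igkv4-61 and 7.01 kb at Igkv4-55. At Igkv4-57 and Igkv4-56 it was 5.87 and 5.84 kb, below the 7 to 7.9 kb of the arrangement. The count of 5 of 11 is therefore not the share of its copies with a site. Of the 22 Igkv4 segments without an Igkv13 segment ending within 10 kb below them, 4 had a site 5.5 to 7 kb below. Segments of a family, and the stretches around them, are close copies of each other. No source used here says how the authors placed reads that match several copies, so which copy carries a site is uncertain, and a share of copies with a site may be misjudged in either direction.

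The remaining 15 sites beyond 1 kb lay 1.11 to 18.5 kb from their nearest segment, and 7 were YmA-dep, 5 YmA-ind and 3 CTD-ind. The 4 CTD-ind sites of the locus were the one 47 bp from Igkv6-13 and those at 68884201 to 68884500 (18.5 kb from Igkv13-87), 70040975 to 70041274 (2.99 kb from Igkv8-34) and 70493975 to 70494274 (3.54 kb from the pseudogene Igkv3-12-1). Of the 5 sites beyond 1 kb that lay nearest to Igkc within the range, the other 3 were YmA-dep sites at 70287325 to 70287624 (10.1 kb from Igkv8-22) and 69662440 to 69662739 (13.2 kb from Igkv4-53) and a YmA-ind site at 69990879 to 69991178 (1.44 kb from Igkv18-36). CTD-ind sites were thus mostly away from segments, but 4 sites are few: 1 of 4 within 1 kb has an interval of 0.631 to 80.6%. None of the 57 sites lay inside any of the 30 other gene entries of the locus, which are mostly pseudogenes and small RNA genes.

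Families without a site within 1 kb numbered 11 and held 61 segments. Besides Igkv8 they include Igkv13 (0 of 19, up to 17.6%, with 5 segments that have the sites at 1064 to 1208 bp just past the limit), Igkv12 (0 of 12, up to 26.5%) and Igkv5 (0 of 6, up to 45.9%). Segments of Igkv12 were 27.0 to 153 kb from a site and those of Igkv5 27.2 to 142 kb. Igkv12 and Igkv5 fill most of the longest stretch without a site, 310 kb from the site of Igkv4-51 to the site near Igkv18-36. That stretch spans 16 V segments, counting Igkv4-51 itself, whose site lies at its lower end. The next longest was 174 kb, from the site near Igkv8-34 to that of Igkv6-25, with 9 V segments. The other 7 of these families have 3 or fewer segments each, so their zeros say little.

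At the J end of the locus there were no sites. The last site before the J segments was that of Igkv3-7, 115 kb from Igkj1, with 6 Igkv3 segments in between. Igkv3 had 1 of 13 segments with a site. Between Igkv3-1, the V segment nearest to the J segments, and the constant region Igkc (70726435 to 70726754) the list held 0 sites. The 18.4 kb between Igkv3-1 and Igkj1 are known to hold the Cer and Sis silencer elements, which shape how often V segments join, and the intron before Igkc holds the intronic kappa enhancer. The J segments Igkj1 to Igkj5 (70722562 to 70723923) were 25.9 to 27.2 kb from their nearest site, which lies past Igkc.

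YmA-dep was the largest class in the locus, whereas it was the smallest in the rest of the list. It held 29 of the 57 sites (50.9%, interval 37.3 to 64.4%), against 11.6% of the 7437 sites elsewhere. YmA-ind held 24 (42.1%, 29.1 to 55.9%), against 54.2% elsewhere, and CTD-ind held 4 (7.02%, 1.95 to 17.0%), against 34.2%. These shares are part of what singled out the locus and support nothing further.

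Class shares within the locus were close in value beside segments and away from them. YmA-dep sites made up 17 of the 33 within 1 kb of a segment (51.5%, interval 33.5 to 69.2%) and 12 of the 24 farther away (50.0%, 29.1 to 70.9%). Read the other way, 58.6% (38.9 to 76.5%) of YmA-dep and 62.5% (40.6 to 81.2%) of YmA-ind sites were within 1 kb. Median distances within 1 kb were 96 bp for YmA-dep and 86 bp for YmA-ind sites. With these numbers of sites the intervals are wide, so a difference of moderate size would not be detectable.

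By family the classes were mixed. Igkv1 had 7 YmA-dep and 2 YmA-ind sites within 1 kb, Igkv6 had 5 YmA-dep, 2 YmA-ind and 1 CTD-ind, and Igkv9 had 2 of each of the first classes. All 3 sites of Igkv4 within 1 kb were YmA-ind, and so were the 3 of Igkv2 within the range. Segments of 1 family with the same offset could differ in class, as Igkv1-131 (YmA-dep) and Igkv1-35 (YmA-ind) did, both at 88 bp.

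**Figure D5:**
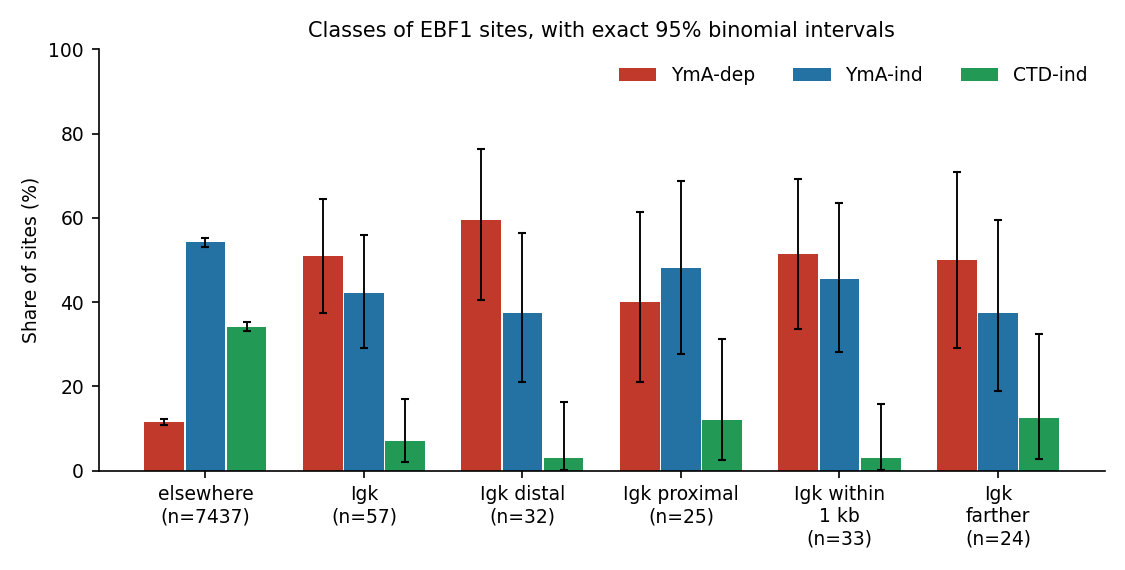
Share of sites in each class (bars, percent) outside the Igk locus, in it, in its distal and proximal parts, and within or beyond 1 kb of a segment, with exact 95% binomial intervals as error bars and the number of sites under each group. YmA-dep is at 11.6% elsewhere and at 40 to 59.4% in each group of the locus.

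The locus was also divided at the midpoint of the range, position 69139779. The distal part held 32 sites among 74 segments and the proximal part 25 among 94. YmA-dep sites were 19 of 32 in the distal part (59.4%, interval 40.6 to 76.3%) and 10 of 25 in the proximal part (40%, 21.1 to 61.3%). YmA-ind sites were 12 in each (37.5%, 21.1 to 56.3%, and 48%, 27.8 to 68.7%). The intervals overlap. Segments with a site within 1 kb were 21 of 74 in the distal part (28.4%, 18.5 to 40.1%) and 12 of 94 in the proximal part (12.8%, 6.77 to 21.2%). Their intervals overlap slightly, and this difference was not tested either. The families differ between the parts: all members of Igkv2, Igkv9 and Igkv14 and 12 of 13 of Igkv1 are distal, while all of Igkv3, Igkv5, Igkv6 and Igkv8 are proximal, so family and position cannot be told apart.

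By distance from Igkj1, YmA-dep sites reached from 264 to 3113 kb, with a median of 2284 kb. YmA-ind sites reached from 115 to 2883 kb, with a median of 1577 kb, and the 4 CTD-ind sites from 228 to 1838 kb. The ranges overlap over most of the array. The stretch from Igkv3-7 to the J segments held no site of any class.

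Few neighbouring sites lay within a few kb of each other. The median gap between neighbouring sites was 35.4 kb over 56 gaps. The shortest gaps were 0.931 kb, between the 2 sites at Igkv6-13, and 1.98 kb, between those on either side of Igkv14-118-2, at 133 bp and 1383 bp from it. All other neighbours were 9.27 kb or more apart.

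The genes of factors known to act at the kappa locus or in its recombination were listed as well. Of 25 such genes, 20 had a site inside or within 10 kb, against 22.3% of protein-coding genes. Among them, Stat5b had the most sites within that distance, 6, and Ikzf3 had 5. Pax5, Foxo1 and Tcf3 had 4 each, and Rag2, a gene of the recombinase, had 1. Within 20 kb the number was again 20, against 28.1% of protein-coding genes, and within 100 kb it was 23, against 53.4%. Without a site within 10 kb were Brwd1, Ikzf1, Rad21, Rag1 and Tcf12. The list was made with many B-lineage factor genes already known to have sites in these data, so its count is not independent evidence. Longer genes also have more room for a site, and the share of protein-coding genes was not matched for gene length.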

How the data were processed

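The deposited file lists EBF1 site positions, in bp on the chromosome and with BED-style starts, and a text class per site, per the file headers. Per the submitters' processing notes, the tools were Bowtie2, SAMtools and deepTools and the build was GRCm38 (mm10). Not given in the sources used here are the peak caller and threshold, the treatment of reads that match several places, how sites came to be 300 bp wide, and the making of the classes. These bear directly on kappa, whose segments are close copies.

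Segments came from RefSeq's gene table (GRCm38.p6), which gives no strand. From its entries on the 20 chromosomes, 345 belonging to scaffolds outside the assembled sequence were dropped, and 49209 genes remained. Entries of type other were also left out where sites elsewhere were placed inside a gene or by a gene end. The shares of other genes with a site kept them. Distances ran from a site's centre to the nearer segment end, in place of the planned offsets along the segment. No test was made with 1 site list. Shares have Clopper-Pearson intervals (scipy 1.17.1, Python 3.11.15) that treat sites as independent. Distances were checked on simulated positions.

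The members and lists were chosen with earlier results of these data known. By rule, the text names segments with a site within 1 kb, the array's ends, J and C segments, families by count, and, of the sites beyond 1 kb, the CTD-ind ones and the 5 nearest to Igkc. The repeats around Igkv4 and the neighbours of Igkv6 were chosen after values were seen. The RefSeq promoter table held 0 of the 168 segments, so no sequence is shown and the planned motif search was not run.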

Additional observations from a re-analysis of the deposited data

How the results depend on the processing

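With near set to 2.5 kb, 73.7% of the sites were near a segment and 26.3% farther, against 57.9% and 42.1% within 1 kb. That limit takes in sites 1.06 to 1.49 kb from their segment, and Igkv13 then had 5 segments with a site, Igkv15 3, Igkv18 1 and Igkv8 1. Some segments were added by sites already near another segment. Igkv8-24 lay 1.54 kb from the site of Igkv6-25, and Igkv15-101-1 lay 1.74 kb from the site of Igkv15-101. The number of segments with a site was 33 within 1 kb and within 0.5 kb, 43 within 2.5 kb and 36 when any overlap of a site with the flank counted. Runs of 2 or more sites numbered 2 with gaps under 5 kb and 14 with gaps under 25 kb, against 5, by the construction of the limit. The other 34 of 38 alternative values of the main results stayed within their interval or within 1.5 times their count, among them YmA-dep shares of 50.9 to 51.7% when the site of Igkv2-137 was counted, neighbours were merged or the range ran from first to last segment. The range from first to last segment held the same sites, so its values could not differ. Merging changed only the 2 runs with gaps under 5 kb, so little change was possible there. Counting that site, merging neighbours within each part and the 5.5 to 7 kb window at Igkv4 were chosen after the data were seen. No paired analysis was possible because each group holds 1 library and only 1 has a list. The motif search and its alternative were not run. Leaving out a library was not possible with 1 list. Read depth is unknown and limits each statement on a segment without a site.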

Other observations

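Sites of the Igkv6 family also stood at a repeated distance from pseudogene entries that are not V segments, a pattern chosen after the values were seen. The sites of Igkv6-17, Igkv6-15, Igkv6-14 and Igkv6-13 (the one 47 bp from the segment) were centred 1591, 1553, 1559 and 1581 bp from the pseudogenes Gm8848, Gm8853, Gm8862 and Gm8872. In each case the site lay between segment and pseudogene, with the pseudogene at lower coordinates for Igkv6-17 and at higher coordinates for the other 3. The arrangement was thus mirrored at Igkv6-17, whose site is at its lower end. The second site of Igkv6-13, 978 bp from the segment, also lay between segment and pseudogene, but 650 bp from Gm8872. At Igkv6-23 the pseudogene Gm8836 was 920 bp from the site and at Igkv6-25 Gm8828 was 153 bp away, both again on the far side of the site from the segment. At Igkv6-20 the nearest pseudogene, Amd-ps5, was 6656 bp away and on the same side as the segment. Reads from these copies may not be separable, which was not tested.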
